A study of Homo sapiens with 6 samples.

Results

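The replication-dependent core histone genes and the linker histone genes were examined for SMARCA4 binding in K562, an established human chronic myelogenous leukaemia line. They were taken from the GENCODE annotation of hg19 as protein-coding genes whose symbols start with H1-, H2AC, H2BC, H3C or H4C, or with the older HIST prefixes. The search found 71 genes among 20162 protein-coding genes: 10 of type H1, 17 of H2A, 17 of H2B, 13 of H3 and 14 of H4. Of these, 52 lay on chromosome 6, 13 on chromosome 1 and 6 elsewhere.

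SMARCA4 (BRG1) drives SWI/SNF remodelling of chromatin by hydrolysing ATP, and ChIP-seq recovers the DNA crosslinked to it with an antibody. The experiment had 3 SMARCA4 ChIP libraries and 3 input libraries from K562 cells, which were crosslinked with disuccinimidyl glutarate (2 mM, 30 min) followed by formaldehyde (1%, 10 min) and sheared to 150 to 400 bp. The labels call the replicates technical, whereas the study's text calls them biological. The data were 1 list of 28265 peaks, each found in at least 2 of the 3 replicates, giving positions without any height, so the depth behind a peak is unknown and no spread between replicates can be given. Shares below carry 95% Wilson intervals, which cover counting error only, and neighbouring genes that share a peak are not independent.

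Core histones H2A, H2B, H3 and H4 form the nucleosome, and linker histone H1 binds the DNA between nucleosomes. Most of their genes are short, lack introns, lie in clusters and are expressed in S phase, when newly made DNA has to be packaged, and their transcripts end in a stem-loop in place of a poly(A) tail. In the nucleus the clusters gather at the histone locus body, where the factor NPAT drives their transcription. Some of the genes are near-identical copies, which limits where short reads can be placed.

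The members had the sequence marks of this class. A histone stem-loop, with a stem of 6 bases and a loop of 4, was found on the transcribed strand within 100 bases of the end of the coding sequence in 63 of 71 members, against 66 of 20162 coding genes (0.327%). The other 3 genes with it were H2AX, H3-4 and H3-7, which are histone genes outside the naming rule. The commonest form, shown with the stem in capitals, was carried by 39 members.

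Stem-loop, hg19, transcribed strand: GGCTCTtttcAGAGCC

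The stem-loop began 22 to 67 bases after the stop codon (median 36). It was not found in 8 members, among them the linker histone genes H1-7, H1-8 and H1-10, which lie outside the clusters, and the core histone genes H2BC10, H2BC12L, H3C6 and H4C13. In 70 of 71 members the canonical transcript had a single exon, and its median length was 493 bp.

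A SMARCA4 peak overlapped the gene or 500 bp on either side of it in 45 of 71 members (63.4%, 51.8 to 73.6%), against 55.0% of all coding genes, a share that lies within this interval. Gene length weighs on this count, since long genes have more room for a peak. With a peak required over the annotated start base itself, 41 of 71 members (57.7%, 46.2 to 68.5%) were counted against 34.3% of all coding genes. With 500 bp on either side of the start, the count was 42 (59.2%, 47.5 to 69.8%) against 43.0%. The gene records of some members run through read-through transcripts into their neighbours, up to 37610 bp for H2BC4. Within 500 bp of the canonical transcript alone, a rule chosen after the data were seen, 44 members (62.0%, 50.3 to 72.4%) had a peak, against 52.6% of all coding genes. Among the other 1095 coding genes whose canonical transcript has 1 exon, the share was 13.6%. These genes were not matched to the members by expression in K562. The difference between the rules for the histone genes came from H2BC6, whose single peak lay 11566 to 11997 bp before its canonical start.

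**Figure D1:**
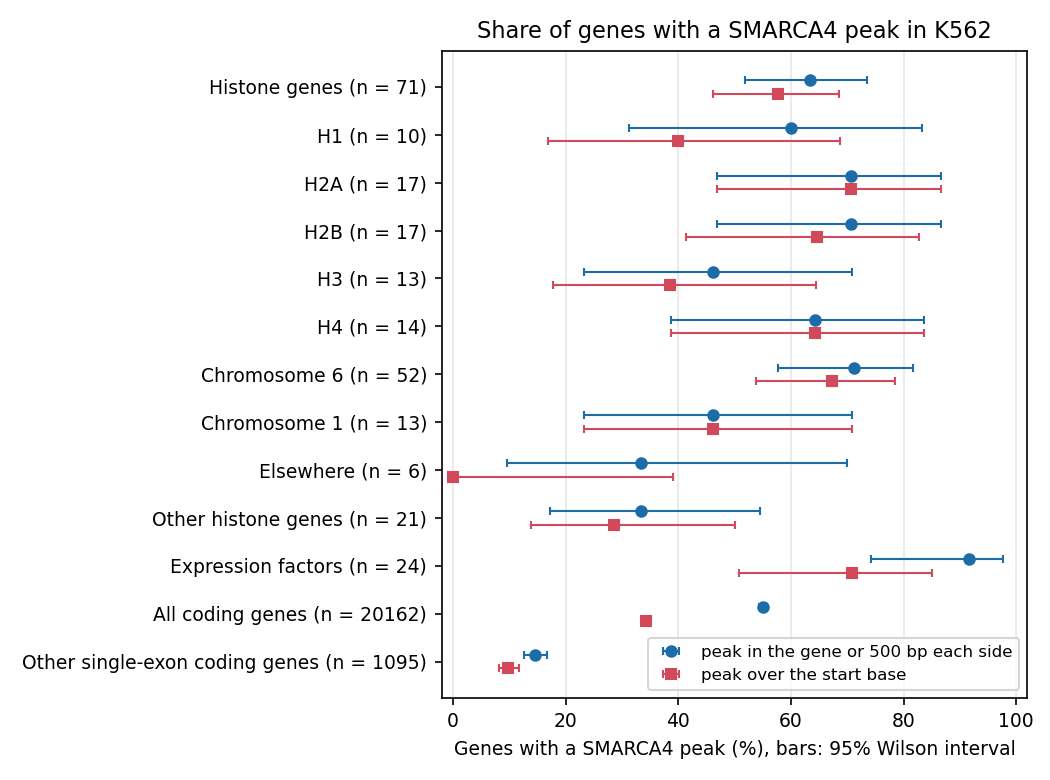
Share of genes with a SMARCA4 peak (%, x axis) for the histone genes, their types and clusters, and the comparison lists (y axis); circles count peaks in the gene or 500 bp each side, squares peaks over the start base, and bars are 95% Wilson intervals. The histone genes stand at 63.4% and 57.7%, all coding genes at 55.0% and 34.3%.

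By type, H2A and H2B genes had a peak in 12 of 17 cases each (70.6%, 46.9 to 86.7%). H4 genes had one in 9 of 14 (64.3%, 38.8 to 83.7%), H1 genes in 6 of 10 (60.0%, 31.3 to 83.2%) and H3 genes in 6 of 13 (46.2%, 23.2 to 70.9%). The 55.0% of all coding genes lies within each of these intervals. Over the start base the comparison differed, with 34.3% of all coding genes covered. The shares were 12 of 17 for H2A (46.9 to 86.7%), 11 of 17 for H2B (41.3 to 82.7%) and 9 of 14 for H4 (38.8 to 83.7%). The 34.3% lies below these intervals. It lies within those of H1, with 4 of 10 (16.8 to 68.7%), and H3, with 5 of 13 (17.7 to 64.5%). The intervals of the 5 types overlap one another, so no order of the types can be read from these counts.

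By position, a peak was found at 37 of 52 members on chromosome 6 (71.2%, 57.7 to 81.7%), at 6 of 13 on chromosome 1 (46.2%, 23.2 to 70.9%) and at 2 of 6 elsewhere (33.3%, 9.68 to 70.0%), against 55.0% of all coding genes, which lies below the first interval and within the other 2. On chromosome 6 the genes fell into 3 runs separated by more than 300 kb. The first run, of 31 genes over 0.562 Mb, had a peak at 21 genes. The second, of 5 genes over 21.7 kb, had one at all 5 genes. The third, of 16 genes over 86.4 kb, had one at 11. Peaks covered 6.40%, 33.4% and 13.7% of the bases of these runs, against 0.628% of chromosome 6 and 0.457% of all chromosomes. Peaks numbered 60.5, 277 and 197 per Mb in the runs and 12 per Mb over chromosome 6. Of the 34, 6 and 17 peaks in the runs, 17, 4 and 14 lay within 500 bp of a member's canonical transcript. The runs were cut from the first to the last histone gene, and the whole chromosomes were not matched to them in gene density. The run of 11 genes on chromosome 1 had a peak at 4 genes, with 3.53% of its bases in peaks and 47.5 peaks per Mb, against 9.89 per Mb over all chromosomes. Of the 5 peaks in this run, 3 lay within 500 bp of a member's canonical transcript.

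H2A and H2B genes are often arranged head to head, with a single stretch of DNA between their starts serving both as promoter. There were 10 such pairs among the members, each an H2A and an H2B gene, with 193 to 250 bp between the starts. In 8 pairs 1 peak covered both starts and the whole stretch between them. In the other 2 pairs, H2AC1 with H2BC1 and H2AC14 with H2BC14, neither start was covered. No pair had only 1 of its starts covered. The 8 peaks were 640 to 3596 bp wide, longer than these stretches, so a peak over 1 start would usually reach the other.

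The widest peak at any member covered such a pair. It was 3596 bp wide (chr6:27099313-27102908), the tenth widest of the whole list, and held the canonical transcripts of H2AC11 and H2BC11 from end to end. The stretch between these starts is shown because the peak covers all of it. Capitals mark the letters TATAAA of the TATA box, the letters CCAAT of the box named after them and the octamer ATTTGCAT on either strand. H2BC11 is read to the left and H2AC11 to the right.

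H2BC11 to H2AC11, hg19 chr6:27100575-27100821, plus strand: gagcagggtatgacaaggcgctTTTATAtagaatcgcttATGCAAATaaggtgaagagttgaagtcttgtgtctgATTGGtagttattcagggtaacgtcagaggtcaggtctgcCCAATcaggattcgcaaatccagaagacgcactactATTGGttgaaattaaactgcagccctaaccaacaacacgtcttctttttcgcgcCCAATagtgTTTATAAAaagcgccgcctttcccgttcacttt

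A pair without a peak, H2AC14 with H2BC14, held the same 3 kinds of motif in its 244 bp. Its nearest peak lay 1865 bp from the start of H2AC14 and 2110 bp from that of H2BC14. The canonical transcripts of H2AC14 and H2BC14 with 500 bp each side had 80.2% and 89.3% of their 75-base sequences once in hg19. The values were close for the pair H2AC13 with H2BC13, at 79.9% and 88.5%, where a peak of 640 bp covered both starts.

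H2BC14 to H2AC14, hg19 chr6:27782556-27782799, minus strand: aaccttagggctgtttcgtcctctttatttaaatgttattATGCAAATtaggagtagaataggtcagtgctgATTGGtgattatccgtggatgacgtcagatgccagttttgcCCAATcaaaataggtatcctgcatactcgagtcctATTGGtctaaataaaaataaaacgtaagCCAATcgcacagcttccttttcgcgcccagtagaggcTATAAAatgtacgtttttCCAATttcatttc

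Among H2A genes, which pair with H2B in the outer part of the nucleosome, the 12 with a peak were H2AC4, H2AC6, H2AC7, H2AC8, H2AC11, H2AC12, H2AC13, H2AC15, H2AC17, H2AC20, H2AC21 and H2AC25. All 12 had it over the start, with widths of 640 bp (H2AC13) to 3596 bp (H2AC11) and a median of 2584 bp over genes. H2AC1, H2AC14, H2AC16, H2AC19 and HIST2H2AA3 had none.

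Among H2B genes, the starts of H2BC4, H2BC5, H2BC9, H2BC11, H2BC12, H2BC13, H2BC15, H2BC17, H2BC18, H2BC21 and H2BC26 were covered. The widths ran from 142 bp at H2BC18 (chr1:149783807-149783948) to 3596 bp at H2BC11, with a median of 2218 bp. The 142 bp peak reached from 23 bp before to 118 bp after the start of H2BC18, a gene with 40.7% of its 75-base sequences found once in hg19. H2BC1, H2BC3, H2BC10, H2BC12L and H2BC14 had none. H2BC3 is an unpaired H2B gene on chromosome 6 with 100% of its transcript unique, and its nearest peak lay 8031 bp from its start. The 200 bases before its start held the octamer, 3 CCAAT boxes and a TATA box.

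H2BC3, hg19 chr6:26043942-26044141, minus strand: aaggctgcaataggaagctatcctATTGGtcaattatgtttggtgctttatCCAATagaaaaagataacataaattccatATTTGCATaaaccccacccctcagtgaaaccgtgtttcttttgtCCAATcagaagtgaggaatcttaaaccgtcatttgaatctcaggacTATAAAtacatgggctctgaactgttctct

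H3 genes encode a core histone whose tail carries many of the best known chromatin marks. A peak covered the start of H3C2, H3C4, H3C7, H3C10 and H3C12, and the peak of H3C1 began 63 bp after its start. The narrowest of the covering peaks was 696 bp at H3C7 and the widest 3045 bp at H3C2 (chr6:26031470-26034514), which also held H2AC4. By the whole gene record the widest was the 3104 bp peak of H2AC17 and H2BC17 (chr6:27860044-27863147), which a long transcript of H3C12 reaches, whereas the peak over the canonical start of H3C12 was 1151 bp wide. H3C3, H3C6, H3C8, H3C11, H3C13, H3C14 and H3C15 had none. All 13 H3 promoters held a CCAAT box, the 7 without a peak included. The sequence of H3C2 shows its place beside the TATA box, with the nearest one beginning 54 bases before the start.

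H3C2, hg19 chr6:26032328-26032527, minus strand: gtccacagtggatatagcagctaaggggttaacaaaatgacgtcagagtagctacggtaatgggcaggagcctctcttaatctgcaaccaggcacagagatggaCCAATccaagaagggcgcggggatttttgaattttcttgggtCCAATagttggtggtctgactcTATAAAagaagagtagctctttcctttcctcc

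H4 is the partner of H3 in the nucleosome core, and most of its genes encode the same protein. Peaks covered the starts of H4C1, HIST1H4B, H4C3, H4C4, H4C5, H4C8, H4C9, H4C11 and H4C12. Their widths ran from 377 bp (H4C12) to 2612 bp (HIST1H4B, chr6:26025496-26028107), with a median of 1276 bp. H4C7, H4C13, H4C14, H4C15 and H4C16 had none. H4C7 lay 3064 bp from its nearest peak, with 100% of its transcript unique. The promoters of HIST1H4B and H4C7 both held a TATA box and no CCAAT box in the 200 bases shown.

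HIST1H4B, hg19 chr6:26027481-26027680, minus strand: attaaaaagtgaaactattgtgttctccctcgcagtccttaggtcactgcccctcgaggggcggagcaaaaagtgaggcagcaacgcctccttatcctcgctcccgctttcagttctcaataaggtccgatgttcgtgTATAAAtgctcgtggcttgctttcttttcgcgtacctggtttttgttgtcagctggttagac
H4C7, hg19 chr6:26247225-26247424, minus strand: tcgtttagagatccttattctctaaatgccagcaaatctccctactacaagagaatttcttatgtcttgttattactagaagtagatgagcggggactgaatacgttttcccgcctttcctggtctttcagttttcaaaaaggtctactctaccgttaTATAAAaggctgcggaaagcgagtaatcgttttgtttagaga

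The linker histone genes differed among themselves in where the peak lay. Of the replication-dependent H1 genes on chromosome 6, H1-4 had a peak of 2989 bp (chr6:26156327-26159315) shared with H2BC5. H1-2 had one of 1819 bp (chr6:26055029-26056847), H1-3 one of 556 bp (chr6:26234662-26235217) and H1-5 one of 262 bp (chr6:27835134-27835395), each over the start. H1-1 had no peak, and the nearest lay 2727 bp from its start. H1-10 on chromosome 3, a replacement linker histone whose synthesis is not tied to DNA replication, had peaks at the far end of the gene only. They were 98 and 244 bp wide, with the nearer edge 1208 bp after the start. H1-6, H1-7 and H1-8 had none.

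The promoters of H1-4, H1-2 and H1-1 are shown since these neighbours run from a wide peak to none. A CCAAT box began 54 to 57 bases before the start in all 3, and the TATA box letters were present at H1-4 and H1-1.

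H1-4, hg19 chr6:26156357-26156556, plus strand: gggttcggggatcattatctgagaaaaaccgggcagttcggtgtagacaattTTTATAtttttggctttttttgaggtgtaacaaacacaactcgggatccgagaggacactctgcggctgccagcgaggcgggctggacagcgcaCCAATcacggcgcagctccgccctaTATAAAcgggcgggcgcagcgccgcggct
H1-2, hg19 chr6:26056699-26056898, minus strand: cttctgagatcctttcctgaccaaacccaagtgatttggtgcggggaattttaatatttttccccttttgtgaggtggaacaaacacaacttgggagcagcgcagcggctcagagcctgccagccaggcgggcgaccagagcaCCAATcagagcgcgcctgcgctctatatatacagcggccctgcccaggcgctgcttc
H1-1, hg19 chr6:26018016-26018215, minus strand: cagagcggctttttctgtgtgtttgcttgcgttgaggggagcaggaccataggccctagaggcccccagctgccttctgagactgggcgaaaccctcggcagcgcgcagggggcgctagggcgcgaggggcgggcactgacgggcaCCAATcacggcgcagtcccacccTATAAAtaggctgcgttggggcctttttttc

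Of the members outside chromosomes 6 and 1, H1-10 is described above. H1-7 and H4C16 on chromosome 12, H2BC12L on chromosome 21 and H1-8 on chromosome 3 had no peak, and their nearest peaks lay 21.8, 72.3, 81.4 and 52.5 kb from the start. No member outside the 2 clustered chromosomes had its start covered (0 of 6, upper Wilson limit 39.0%), and the 34.3% of all coding genes lies below this limit.

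Germline members were listed apart because they are known for expression in germ cells. H1-6, H2AC1 and H2BC1 are known from testis, H1-7 from spermatids and H1-8 from oocytes. None of the 5 had a peak (upper Wilson limit 43.4%), against 55.0% of all coding genes by the same rule and 34.3% over the start base, the latter within the limit. At least 99.6% of the 75-base sequences of each window occurred once in hg19.

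The peaks at the histone genes were wide. By the planned rule 53 distinct peaks were counted, of which 9 lay only within the extended gene records. Their median width was 696 bp, against 381 bp for the 20199 peaks that met the same rule at any coding gene and 368 bp for all peaks. The 30 peaks over a member's start had a median of 1382 bp (quartiles 709.25 and 2567.25 bp), against 567 bp (379 and 839 bp) for the 6261 peaks over the start of any coding gene. At least 1500 bp was reached by 14 of the 30 (46.7%) and by 4.68% of the 6261. Of the 100 widest peaks in the list, 11 were at histone genes. A wider peak touches more genes by construction. Within 500 bp of the canonical transcripts, the 12 peaks that touched more than 1 member had a median of 2367.5 bp and the 32 that touched 1 member a median of 687.5 bp. Histone genes whose symbols are absent from the annotation were not analysed here and may lie under the same peaks.

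**Figure D2:**
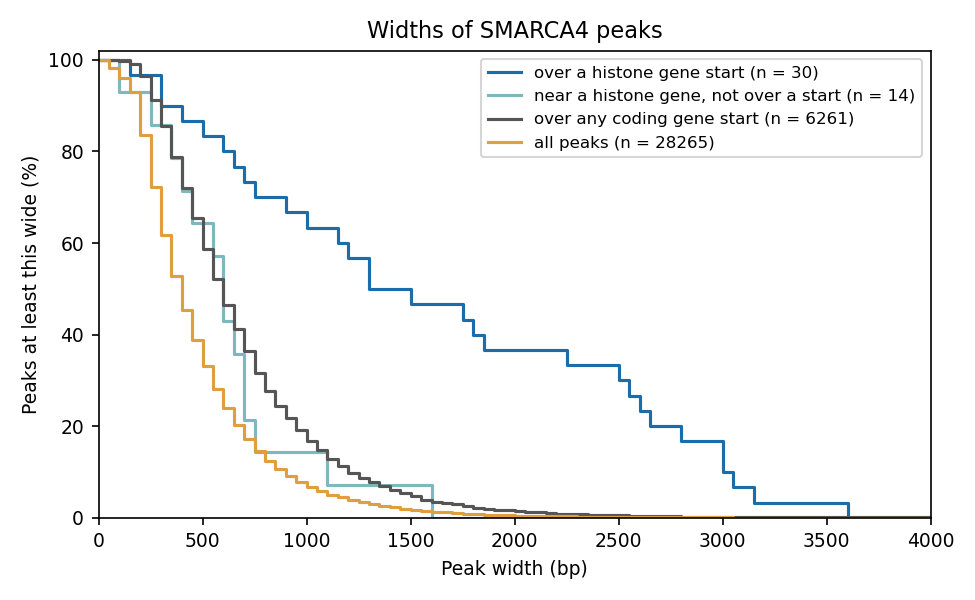
Share of peaks (%, y axis) at least as wide as the value on the x axis (bp, in steps of 50 bp) for peaks over a histone gene start, other peaks near a canonical histone transcript, peaks over any coding gene start, and all peaks. Peaks over histone starts reach 1500 bp in 46.7% of cases.

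The peaks took in whole canonical transcripts and not only promoters. Of the 41 members with a covered start, 30 had their canonical transcript covered from end to end. The median share of the transcript covered was 100%. For the 107 other single-exon coding genes with a covered start it was 9.98%, but these are longer, with a median of 2517 bp. Limited to transcripts of at most 1 kb, the medians were 100% over 40 members and 55.2% over 15 other single-exon genes. Peaks covering a member's start reached from a median of 627 bp before it to 728 bp after it, and those at all 6916 coding genes with a covered start from 316 bp before to 217 bp after. The median peak centre lay 92 bp inside the histone genes and 46.5 bp before the start of coding genes in general. At 500 bp after the start, 54.9% of histone genes were inside a peak and 8.40% of all coding genes; at 2000 bp after it the shares were 18.3% and 1.48%. At these distances a peak may be that of the next histone gene.

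**Figure D3:**
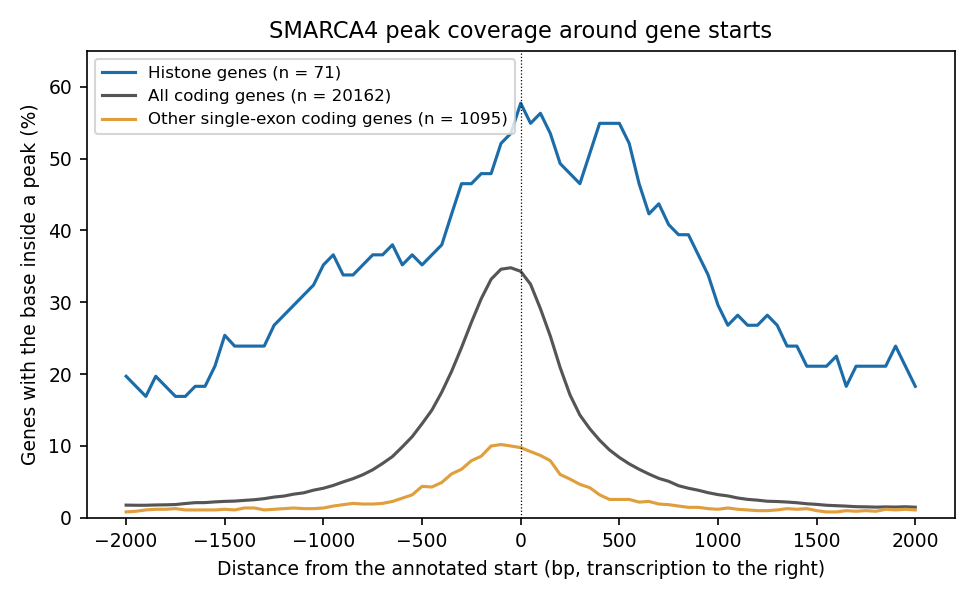
Share of genes (%, y axis) whose base at each distance from the annotated start (bp, x axis) lies inside a SMARCA4 peak, for the 71 histone genes, all coding genes and the other single-exon coding genes. At the start base the shares are 57.7%, 34.3% and 9.77%.

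The base composition at these peaks was unlike that at other bound starts. The median GC content of the 30 peaks over a histone start was 50.2%, against 67.0% for peaks over any coding start and 53.2% for all peaks. A G4 motif is a sequence that can fold into a four-stranded structure, searched here as 4 runs of at least 3 G on either strand, joined by loops of 1 to 7 bases. The study compared SMARCA4 sites with folded structures mapped by G4 ChIP-seq in K562, whereas only the sequence motif was searched here. A motif was present in 3 of the 30 peaks (10.0%, 3.46 to 25.6%), against 53.2% of the peaks over any coding start, which are narrower. By the planned rule 7 of the 53 peaks (13.2%, 6.55 to 24.8%) held one, against 28.1% of the peaks at any coding gene and 23.4% of all peaks. With loops of up to 12 bases, 12 of the 53 (22.6%, 13.5 to 35.5%) held one, against 40.3% and 34.2%, and 6 of the 30 (20%, 9.51 to 37.3%) against 70.5% of the peaks over any coding start. The 7 included peaks at H2BC21, H2BC26, H3C7, H4C8 and H2AC6 and the peak shared by H3C1 and H4C1.

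In the 250 bases before the start, the median GC content was 44% for members and 63.2% for all coding genes. TATAAA was present in 46 of 71 members (64.8%) and 9.38% of all coding genes, CCAAT in 57 (80.3%) and 34.2%, and ATTTGCAT in 25 (35.2%) and 1.53%. GGGCGG, the GC box, was present in 18 (25.4%) and 58.6%, and the G4 motif in 5 (7.04%) and 32.1%. The octamer lay before 13 of 17 H2B genes and 12 of 17 H2A genes and before none of the H1, H3 and H4 genes. A CCAAT box lay before 16 of 17 H2A and H2B genes each and before 4 of 14 H4 genes. Both genes of a head-to-head pair, with starts 193 to 250 bp apart, were scored on largely the same bases. The same motif can therefore count for both, here and in the counts below.

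The motifs were found at members with and without a peak. TATAAA was present in 28 of 41 members with a covered start (68.3%, 53.0 to 80.4%) and in 18 of the 30 without (60.0%, 42.3 to 75.4%). For CCAAT the counts were 35 of 41 (85.4%) and 22 of 30 (73.3%), for ATTTGCAT 16 of 41 (39.0%) and 9 of 30 (30.0%), and for GGGCGG 8 of 41 (19.5%) and 10 of 30 (33.3%). The intervals overlap for each motif.

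**Figure D4:**
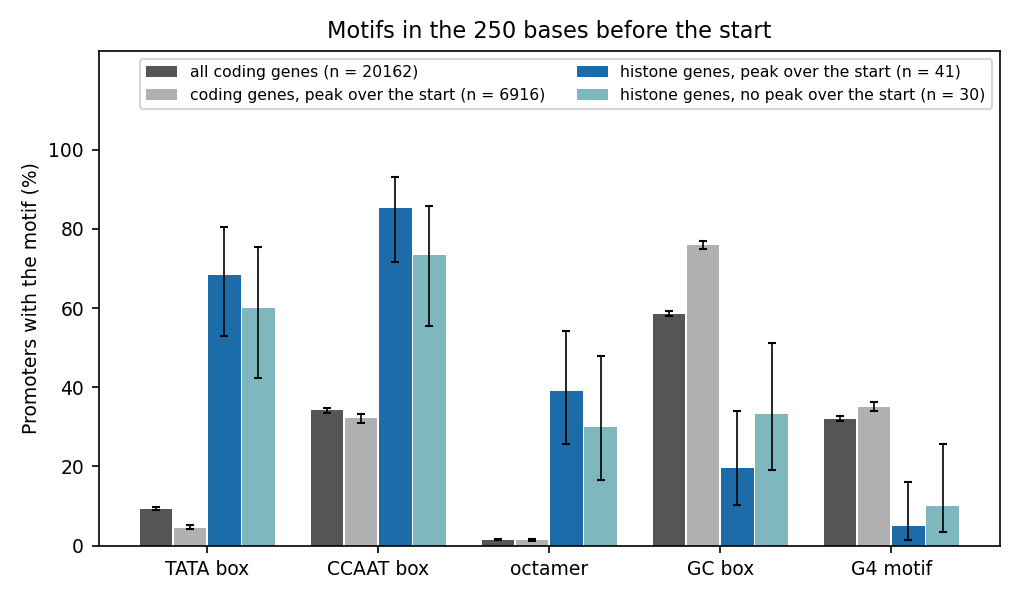
Share of promoters (%, y axis) with a TATA box, a CCAAT box, the octamer, a GC box or a G4 motif in the 250 bases before the start, for all coding genes, coding genes with a peak over the start, and histone genes with and without one; bars carry 95% Wilson intervals. TATAAA was present in 9.38% of all coding genes and in 68.3% and 60.0% of histone genes with and without a covered start.

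Copies of near-identical sequence were measured as the share of 75-base sequences, the length of the reads, that occur once in hg19. In 7 members under 50% of the sequences of the canonical transcript and 500 bp each side were unique, all in the run of 11 genes on chromosome 1, and none of the 7 had a peak. H4C14, H3C14, HIST2H2AA3, H2AC19, H3C15 and H4C15 stood at 0%, and H3C13 at 38.0%. The other 6 members on chromosome 1 all had a peak. The study's methods state that reads of low mapping quality were removed, and whether this bears on the absence of a peak at these genes was not tested. Without the 7 genes and the 5 germline genes, 44 of 59 members (74.6%, 62.2 to 83.9%) had a peak within 500 bp of the canonical transcript, against 52.6% of all coding genes, which were not filtered in the same way. None of the genes left out had a peak, so the share could only rise.

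Breaks between peaks within the other members lay in repeated and in unique sequence. Between neighbouring peaks at most 500 bp apart, 12 gaps lay over the gene record of a member, 8 of them over its canonical transcript. Under 90% of the 75-base sequences touching the gap were unique in 6 of the 12, all over canonical transcripts, and 100% in the other 6. H4C11 had a peak of 451 bp, a gap of 282 bp (chr6:27791910-27792191) with 18.0% unique sequences, and a peak of 554 bp. H4C12 had the same layout, with peaks of 683 and 377 bp around a gap of 269 bp (chr6:27799032-27799300) at 14.9%. The gap in H2AC13 measured 244 bp at 18.9%, that in H2BC12 199 bp at 39.9%, that in H2BC21 120 bp at 55.7% and that in H2BC26 185 bp at 59.5%. The gaps in fully unique sequence over canonical transcripts measured 26 bp in H2BC13 and 95 bp in H1-10. Those over the rest of the gene records measured 244 bp in H2BC4, 98 bp in H3C10, and 153 and 8 bp in H3C12. Of the 44 peaks near canonical histone transcripts, 41 had at least 95% unique sequences. The part of read placement in these gaps was not tested.

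**Figure D5:**
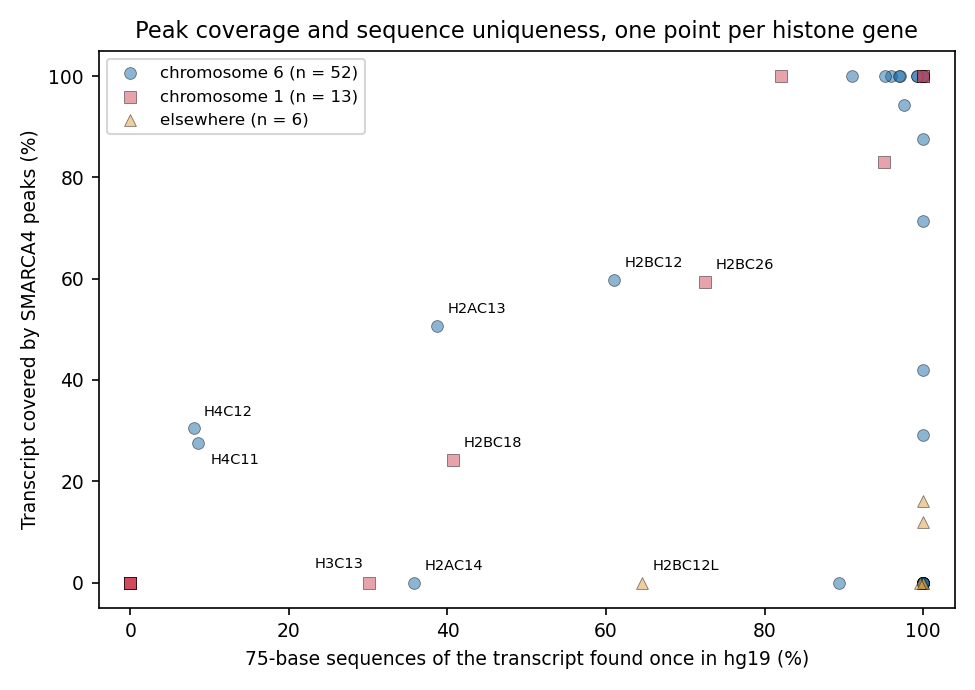
Share of each histone transcript covered by SMARCA4 peaks (%, y axis) against the share of its 75-base sequences found once in hg19 (%, x axis), 1 point per member, by cluster; points with the same values lie on each other. H4C11 and H4C12 stand at 8.57% and 7.99% unique with 27.5% and 30.5% covered, whereas members at 100% unique run from 0% to 100% covered.

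Of the 27 members without a peak near the canonical transcript, 17 had windows that were at least 95% unique, the 5 germline genes among them. Apart from the germline genes and the 7 repeated genes, 15 remained: H1-1, H2AC14, H2AC16, H2BC3, H2BC6, H2BC10, H2BC12L, H2BC14, H3C3, H3C6, H3C8, H3C11, H4C7, H4C13 and H4C16. Of these, H2BC12L (64.8%), H2AC14 (80.2%) and H2BC14 (89.3%) were less than 95% unique. Several of the 15 were neighbours, such as H2BC3 with H3C3, H3C8 with H2BC10, and H3C11 with H4C13, whose nearest peaks lay 4729 to 12476 bp from their starts. Over the 27 members the nearest peak lay 1300 to 81448 bp from the start, with a median of 10958 bp.

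The coding genes lying among the histone genes numbered 7, all in the first run on chromosome 6, and 3 had a peak (42.9%, 15.8 to 75%), against 55.0% of all coding genes, a share within this interval. These were HFE, a regulator of iron uptake (347 bp), TRIM38, a ubiquitin ligase of immune signalling (490 bp), and an unnamed gene, ENSG00000282988, that shares the 2756 bp peak of H2AC7. SLC17A1, SLC17A2, SLC17A3 and SLC17A4, which encode phosphate and anion transporters, had none.

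Other histone genes, most of them variants made outside S phase, had a peak in 7 of 21 cases (33.3%, 17.2 to 54.6%), against 55.0% of all coding genes. Unlike the members, these genes were not split by germline expression, so the share mixes genes of differing expression. The peaks over the starts of H2AZ1 (1918 bp), H2AZ2 (1890 bp), H2AX (1734 bp), H3-3B (1396 bp) and H3-3A (1350 bp) were wider than that of MACROH2A1 (680 bp). CENPA, the histone of the centromere, had peaks but none over its start. Of the 14 without a peak, 4 had windows under 50% unique, namely H2AB1, H2AB2, H2AB3 and H3-7. The rest were H2AJ, H2AL3, H2AP, H2BW1, H2BW2, H3-4, H3-5, H3Y1, H3Y2 and MACROH2A2.

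The genes that act on histone expression, from transcription at the histone locus body to processing of the stem-loop and the chaperones that receive the proteins, had a peak in 22 of 24 cases (91.7%, 74.2 to 97.7%), against 55.0% of all coding genes. The start was covered in 17 of 24 (70.8%, 50.8 to 85.1%), against 34.3%. NPAT, the transcription factor of the histone locus body, had a peak of 728 bp over its start. SLBP, which binds the stem-loop, had one of 1205 bp, the chaperone NASP one of 1637 bp and the chaperone HIRA one of 2153 bp. The peaks over these starts ran from 287 bp (CDK2) to 2153 bp, against a median of 567 bp over any coding start. Those of CPSF2 (314 bp), CHAF1A (376 bp) and LSM11 (395 bp) lay below this median, those of ASF1A (1468 bp) and POU2F1 (1569 bp) above it. HINFP had a peak of 280 bp but none over its start. CHAF1B, of the chromatin assembly factor, and CSTF2, of the 3' end processing machinery, had none.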

How the data were processed

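SMARCA4 ChIP-seq of K562 cells was analysed from the list of regions deposited by the authors. Per the study's methods, single-end reads were trimmed, aligned to hg19 with BWA and cleared of duplicates. Removal of reads of low mapping quality is stated with the trimming step. Peaks were called per replicate with MACS2 at a q-value threshold of 0.05, and bedtools kept regions found in at least 2 of 3 replicates. The deposited values are positions in bp in 3 columns, with no score, count or depth, so stronger and weaker peaks cannot be told apart. The pooling leaves no value per replicate, and input libraries enter only through the peak calls.

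Genes and canonical transcripts came from GENCODE release 44 lifted to hg19. Overlap needed 1 bp. A symbol absent from that annotation was not analysed here. Some values and sequences that the naming rule asked for are not reported here. Described singly were the widest and narrowest peaks of each type, H1 genes, members outside chromosomes 6 and 1, the germline list and members without a peak; other single values were chosen after they were seen. Motifs were matched letter for letter, and uniqueness by exact match on both strands. The overlap, motif and uniqueness code was tested on simulated data. The members and lists were chosen with earlier results of these data known. Counts and medians are set beside those of all coding genes, and no test was run. Python 3.11.15, numpy, pandas, pysam and matplotlib were used.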

Additional observations from a re-analysis of the deposited data

How the results depend on the processing

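Of 119 values recomputed under other settings, 106 stayed within 1.5 times the reported count or within the interval of the median. Requiring at least 50% of the gene body moved the histone genes with a peak from 45 to 29, H1 from 6 to 3, H2B from 12 to 4, chromosome 1 from 6 to 3, members elsewhere from 2 to 0 and all coding genes from 11092 to 80; this rule counts short genes more readily. With only peaks at least as wide as the median peak of 368 bp, H1 moved to 3 and members elsewhere to 0. Members elsewhere also moved to 0 within 500 bp of the start and over the start base, where all coding genes moved to 6916. Joining peaks at most 500 bp apart moved the median width from 696 to 1308 bp, and loops of up to 12 bases moved the peaks with a G4 motif from 7 to 12. The planned cut of 50% unique sequences used the whole gene record and left out 8 members, the 7 described and H2BC18. Replicates could not be left out in turn, since the list pools them. No paired analysis was possible because the peaks carry no replicate number. A region without a peak may be bound below the depth at which peaks were called.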

Other observations

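Peaks covered at least 50% of the gene record in 80 of 20162 coding genes (0.397%, 0.319 to 0.494%), and 29 of the 80 were histone members. The canonical transcripts of the members had a median of 493 bp, but the rule uses gene records, which run up to 37610 bp for H2BC4. The relation of this count to gene length and to peak width was not tested.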
